A study of Rattus norvegicus with 8 samples.

Results

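The genes of GABA handling and of the GABAergic output neurons of the *substantia nigra* (SN) were compared between AAV-αSyn and AAV-Null rats. They were *Gad1*, *Gad2*, *Slc32a1*, *Slc6a11*, *Abat* and *Pvalb*, taken by symbol, and every non-control probe whose RefSeq accession belongs to one of these 6 rat genes was taken. They are 6 of the 16678 genes that the array names through RefSeq, all 6 tested. The probes were 8 of the 45598 of the array, with 2 probes each for *Gad1* and *Pvalb* and 1 for each of the others, and all 8 were among the 33853 probes tested. No probe of the 6 genes passed the thresholds for a difference between the groups. The log2 fold changes ran from −0.25 for *Slc6a11* to 0.15 for *Gad1*, while *Th*, the dopaminergic marker in the same tissue, was lower by 0.52 on the log2 scale and did not pass the adjusted threshold either (limma, adjusted p = 0.484).

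RNA came from the SN on the injected side of adult female Sprague-Dawley rats, operated on at 3 months of age and killed 20 weeks after surgery. Each rat had received an AAV6 vector into the SN of 1 side, either AAV-αSyn, which carries wild-type human α-synuclein, or its control, AAV-Null. Each group had 4 arrays, each from its own RNA sample, and all 8 arrays lay on 1 slide. The methods state 3 biological replicates per group, but the labels do not say that the 4 samples of a group are separate rats. The p-values measure only the spread between these samples, which may be in part technical. The vectors also differed in titre, which was 5.3e9 vg/µL in AAV-Null and 5.2e10 vg/µL in AAV-αSyn rats, so titre and transgene cannot be told apart. The contralateral side and uninjected rats were not analysed here. The tissue was a microdissected block of all cell types, in which fewer cells of a type and less RNA per cell cannot be told apart.

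The SN holds dopaminergic neurons in its pars compacta and GABAergic projection neurons in its pars reticulata, the latter firing tonically and sending the inhibitory output of the basal ganglia to the thalamus, the superior colliculus and the brainstem. GABA is made from glutamate by the glutamate decarboxylases GAD67 and GAD65, loaded into vesicles by the transporter VGAT, cleared by plasma membrane transporters and broken down by GABA transaminase. Many reticulata output neurons contain the calcium buffer parvalbumin. *Slc6a11* and *Abat* are also expressed by astrocytes, and the other 4 genes by GABAergic neurons outside the SN, so the list does not mark output neurons alone.

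Values below are normalized log2 intensities, on the scale of which 1 unit up is a fold of 2, and levels of different probes are not set against each other. All 8 probes were above background on all 8 arrays. Their lowest value on any array was 7.78, whereas the dimmest spots still called well above background lay between 2.51 and 3.50 by array, and no spot was saturated. The arrays were of similar brightness, with a median intensity of 261 to 338 and 74.8% to 77.5% of spots above background, and any 2 arrays correlated with r between 0.983 and 0.993.

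*Gad1* encodes GAD67, the decarboxylase that makes most of the GABA of the cell body. Its probe A_64_P084971, spotted 10 times per array, read 14.41, 14.47, 14.26 and 14.33 on AAV-Null replicates 1 to 4. On AAV-αSyn replicates 1 to 4 it read 14.58, 14.54, 14.37 and 14.59. AAV-αSyn replicates 1, 2 and 4 were above every AAV-Null array, and AAV-αSyn replicate 3 lay inside the AAV-Null range, so the groups overlapped. The means were 14.37 ± 0.094 and 14.52 ± 0.10 (SD, n = 4 each), a log2 fold change of 0.15 with a standard error of 0.083 (limma, unadjusted p = 0.106, adjusted p = 0.942). The exact permutation test, two-sided, gave p = 0.0857, where 4 against 4 arrays cannot give less than 0.0286. The 95% confidence interval ran from 0.973 to 1.27 as a fold. Within an array the 10 spots had an SD of 0.0449 to 0.0678, less than the SD between the samples of a group.

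Another *Gad1* probe, A_44_P243102, with 1 spot per array, read 8.74, 8.73, 8.68 and 7.94 in the AAV-Null group. In the AAV-αSyn group it read 8.49, 8.55, 8.66 and 8.68. The low value of AAV-Null replicate 4 sets the spread here, and the other 3 AAV-Null arrays were at or above the top of the AAV-αSyn range. The log2 fold change was 0.07 ± 0.18 (SE; limma, unadjusted p = 0.693, adjusted p = 0.987). Its positive sign rests on AAV-Null replicate 4, without which the AAV-Null mean is the higher. The 2 *Gad1* probes followed each other weakly over the 8 arrays (r = 0.20, n = 8 arrays of 1 slide), so the higher mean of the first probe was not shared array by array. This r includes the low AAV-Null replicate 4. AAV-αSyn replicates 1 and 2, among the highest arrays on the first probe, were the lowest on the second apart from that array.

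*Gad2* encodes GAD65, the decarboxylase tied to synaptic vesicles. On the 4 AAV-Null arrays it read 12.55, 12.44, 11.92 and 11.86. On the 4 AAV-αSyn arrays it read 12.18, 12.26, 12.31 and 12.56. AAV-Null replicates 1 and 2 were high and replicates 3 and 4 low, and the AAV-αSyn arrays lay between them, except that replicate 4 just passed the highest AAV-Null array. The means were 12.19 ± 0.36 and 12.33 ± 0.16 (SD, n = 4 each), with a log2 fold change of 0.14 ± 0.18 (SE; limma, unadjusted p = 0.465, adjusted p = 0.973; exact permutation test, two-sided, p = 0.457). As a fold, the 95% confidence interval of 0.827 to 1.46 holds both a moderate fall and a moderate rise.

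*Slc32a1* encodes VGAT, which fills synaptic vesicles with GABA or glycine. It read 7.78, 8.23, 9.14 and 7.90 in AAV-Null and 7.97, 8.35, 8.29 and 8.16 in AAV-αSyn rats. AAV-Null replicate 3 was the highest of the 8 arrays, and the other 3 AAV-Null arrays lay below the AAV-αSyn range or within it. The means were 8.26 ± 0.61 and 8.19 ± 0.17 (SD, n = 4 each), and the log2 fold change was −0.07 ± 0.28 (SE; limma, unadjusted p = 0.809, adjusted p = 0.991; exact permutation test, two-sided, p = 0.943). This was the widest interval of the 8 probes, 0.610 to 1.49 as a fold. Without AAV-Null replicate 3 the log2 fold change was 0.22 and without AAV-αSyn replicate 1 it was 0.0035, so single arrays turn its direction.

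*Slc6a11* encodes GAT-3, a plasma membrane GABA transporter found mainly on astrocytes. The AAV-Null arrays read 8.20, 8.25, 8.84 and 8.05. The AAV-αSyn arrays read 8.17, 8.09, 8.10 and 7.99, a narrow range at and below the lower end of the AAV-Null range, with overlap. The means were 8.34 ± 0.35 and 8.09 ± 0.075 (SD, n = 4 each), with a log2 fold change of −0.25 ± 0.16 (SE; limma, unadjusted p = 0.166, adjusted p = 0.961; exact permutation test, two-sided, p = 0.171) and a 95% confidence interval of 0.649 to 1.09 as a fold. AAV-Null replicate 3 was again the highest array, and without it the log2 fold change was −0.08. The 6 astrocyte markers gave no difference with p under 0.05, and their summed level was 16.15 to 16.54 in AAV-Null and 16.15 to 16.40 in AAV-αSyn rats (log2 of the summed intensities).

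*Abat* encodes GABA transaminase, the mitochondrial enzyme that breaks GABA down. It read 10.44, 10.59, 10.89 and 10.41 on the AAV-Null arrays and 10.53, 10.47, 10.56 and 10.54 on the AAV-αSyn arrays. All 4 AAV-αSyn arrays lay inside the AAV-Null range. With means of 10.58 ± 0.22 and 10.53 ± 0.040 (SD, n = 4 each), the log2 fold change was −0.06 ± 0.11 (SE; limma, unadjusted p = 0.612, adjusted p = 0.986; exact permutation test, two-sided, p = 0.771), and the 95% confidence interval was 0.803 to 1.15 as a fold. AAV-Null replicate 3 was the highest array for this gene as well, and without it the log2 fold change was 0.04.

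*Pvalb* encodes parvalbumin. The probe with 10 spots, A_64_P008416, read 15.19, 15.00, 15.20 and 14.55 in AAV-Null rats. In AAV-αSyn rats it read 15.35, 15.23, 14.89 and 15.06. AAV-αSyn replicates 1 and 2 were above every AAV-Null array, and replicates 3 and 4 were below 2 of them or more. The means were 14.99 ± 0.31 and 15.13 ± 0.20 (SD, n = 4 each), with a log2 fold change of 0.15 ± 0.17 (SE; limma, unadjusted p = 0.404, adjusted p = 0.973; exact permutation test, two-sided, p = 0.457) and a 95% confidence interval of 0.848 to 1.45 as a fold. AAV-Null replicate 4 was the lowest array, and without it the log2 fold change was 0.0015. The other probe, A_44_P145605, which is annotated to a predicted transcript and has 2 spots, read 12.65, 12.48, 12.45 and 12.33 against 12.73, 12.48, 12.25 and 12.53, a log2 fold change of 0.02 ± 0.12 (SE; limma, unadjusted p = 0.867, adjusted p = 0.993). The 2 *Pvalb* probes followed each other over the 8 arrays (r = 0.75), unlike those of *Gad1*.

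**Figure D1:**
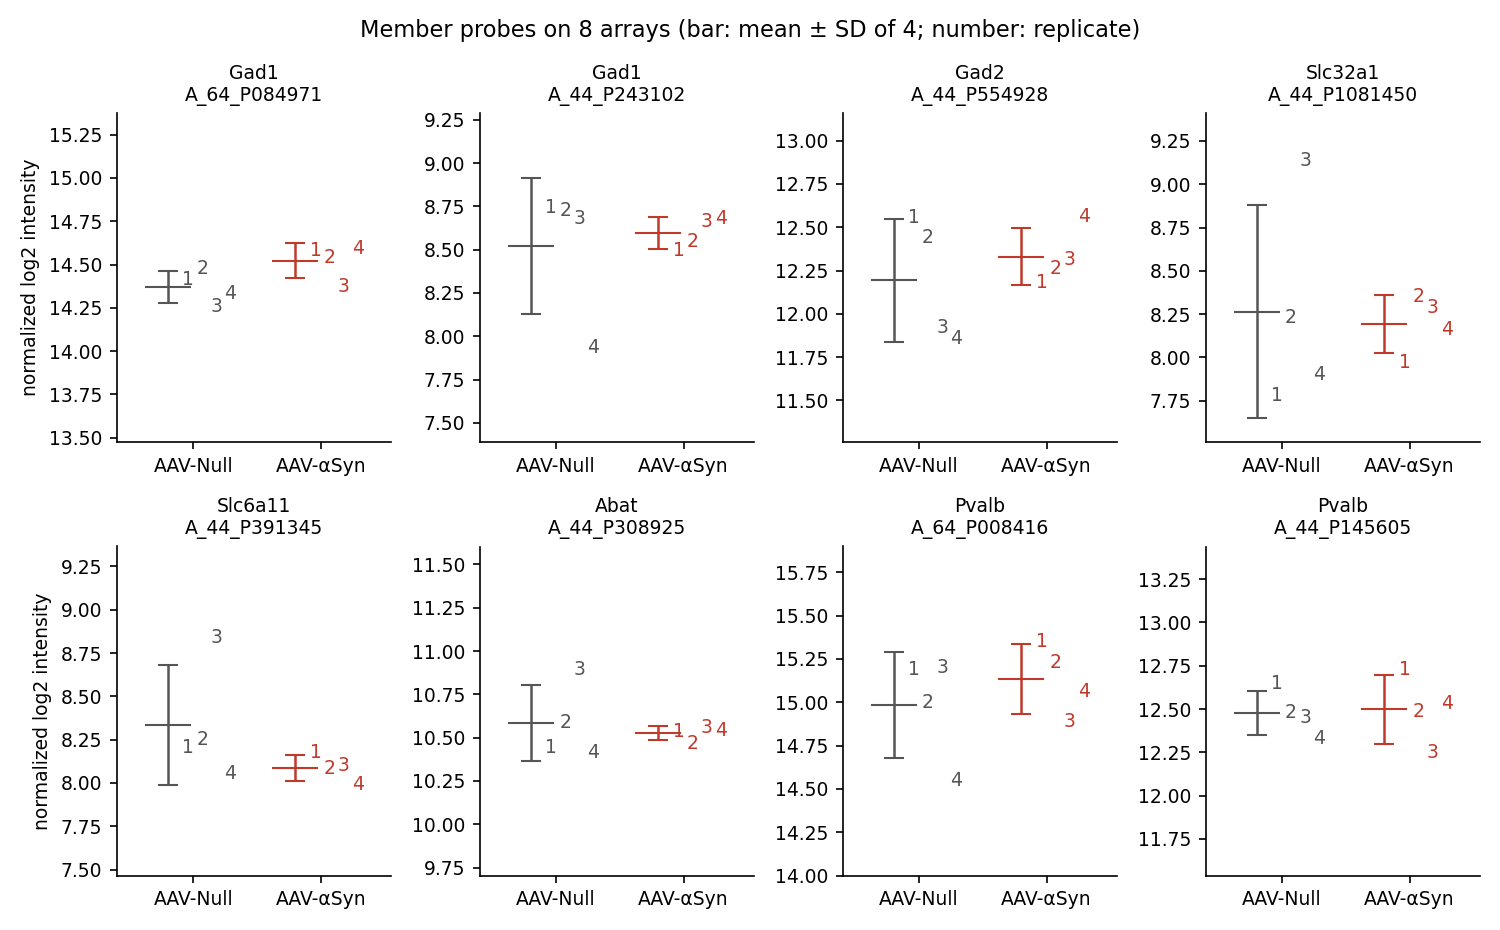
Normalized log2 intensity (vertical axis) of the 8 probes of the 6 genes on each of the 8 arrays, grouped as AAV-Null (grey) and AAV-αSyn (red). Numerals are replicate numbers and the bars give the mean ± SD of 4 arrays. The 2 groups overlap for every probe, AAV-Null replicate 3 is highest for Slc32a1, Slc6a11 and Abat, and AAV-Null replicate 4 is lowest for both Gad1 A_44_P243102 and Pvalb A_64_P008416.

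Over all probes tested, 5 of 33853 (0.0148%) had an adjusted p under 0.05 and 1908 (5.64%) an unadjusted p under 0.05, 3.31% higher and 2.32% lower in AAV-αSyn. The arrays of the 2 groups did not overlap for 3.83% of probes. Of the 8 probes of the GABAergic genes 0 met any of these, by limma or by the absence of overlap. Taking the brightest probe of each gene, 3 genes were higher (*Gad1*, *Gad2* and *Pvalb*) and 3 lower (*Slc32a1*, *Slc6a11* and *Abat*), with a median log2 fold change of 0.04 beside 0.01 over all probes. This balance turns on 1 array, since without AAV-Null replicate 3 *Slc32a1* (0.22) and *Abat* (0.04) were higher as well. The standard errors of the 8 probes ran from 0.083 to 0.28, around the median of 0.13 over all probes, and the first *Gad1* probe was the most precise.

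**Figure D2:**
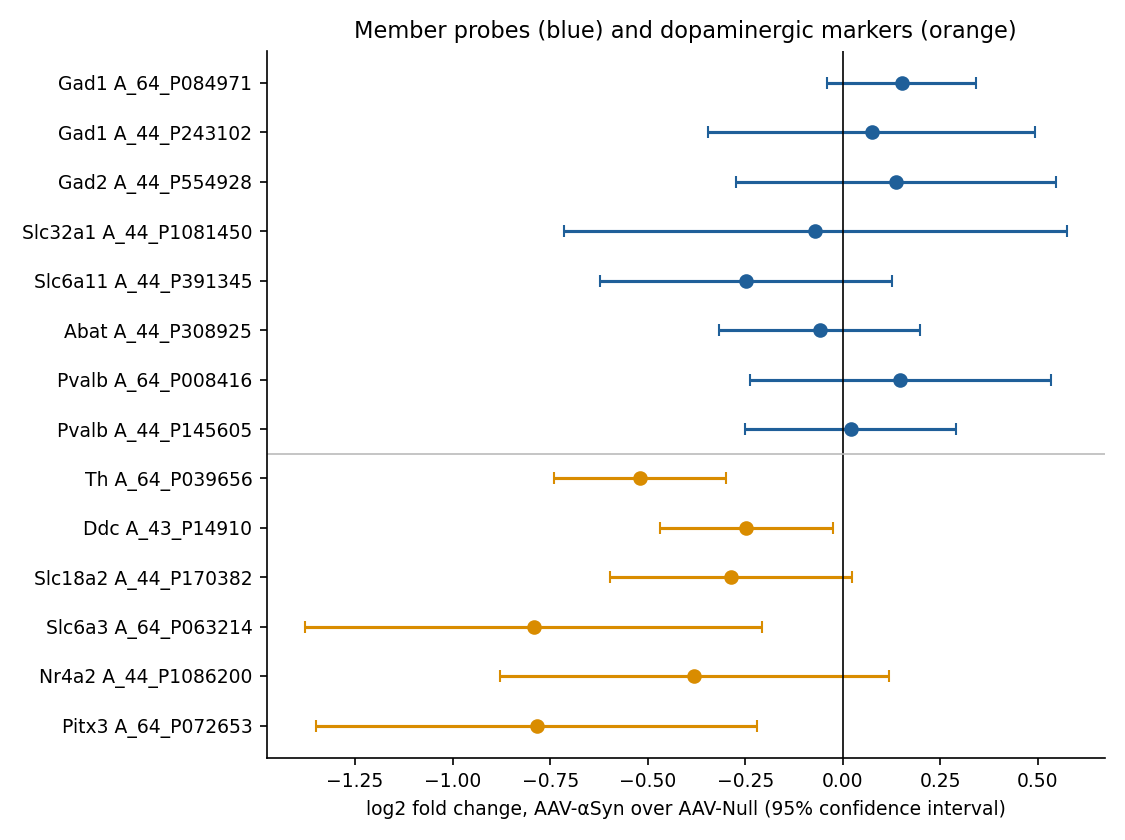
Log2 fold change of AAV-αSyn over AAV-Null (horizontal axis) with the 95% confidence interval from limma (bars), for the 8 probes of the GABAergic genes (blue) and the brightest probe of each of 6 dopaminergic markers (orange), n = 4 arrays per group. All 8 blue intervals cross 0, and all 6 orange points lie below it.

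The 6 dopaminergic markers serve as the reference for a change in this tissue. *Th*, which encodes the rate-limiting enzyme of dopamine synthesis, read 16.70, 16.51, 16.30 and 16.43 in AAV-Null and 15.99, 15.99, 16.01 and 15.88 in AAV-αSyn rats, without overlap, a log2 fold change of −0.52 ± 0.096 (SE; limma, unadjusted p = 0.000604, adjusted p = 0.484). The dopamine transporter gene *Slc6a3* (−0.79), the transcription factor gene *Pitx3* (−0.78) and the decarboxylase gene *Ddc* (−0.25) also had an unadjusted p under 0.05, and 4 of the 6 markers did so in all, beside 5.64% of all probes. For *Ddc* this was lost with the replicate block (limma, unadjusted p = 0.0634) and in 4 of the 8 ways of leaving out 1 array, up to 0.0783 without AAV-αSyn replicate 1. No adjusted p of the 6 was under 0.05. All 6 were lower in AAV-αSyn, with log2 fold changes of −0.79 to −0.25 and a median of −0.45. The 95% confidence intervals of the GABAergic genes on the same scale were −0.04 to 0.34 for *Gad1*, −0.27 to 0.55 for *Gad2*, −0.71 to 0.57 for *Slc32a1*, −0.62 to 0.13 for *Slc6a11*, −0.32 to 0.20 for *Abat* and −0.24 to 0.53 for *Pvalb*. Whether the GABAergic genes differ from the dopaminergic list in their response was not tested.

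To ask whether the genes differed from each other in response, the other 5 were each set against *Gad1* of the same array, as a difference of normalized log2 intensities. The *Slc6a11* probe minus the *Gad1* probe was −6.21, −6.22, −5.42 and −6.28 in AAV-Null and −6.41, −6.45, −6.27 and −6.60 in AAV-αSyn rats. AAV-αSyn replicates 1, 2 and 4 lay below every AAV-Null difference, and AAV-αSyn replicate 3 lay just above the lowest of them. The mean of this difference was 0.40 lower in AAV-αSyn (exact permutation test, two-sided, p = 0.0571, and 0.286 after Benjamini–Hochberg adjustment over the 5 genes). Without AAV-Null replicate 3, the array that stood apart, the log2 difference between the groups was −0.19 (exact permutation p = 0.0857, unadjusted), and without AAV-Null replicate 4 it was −0.48 (exact permutation p = 0.0286, unadjusted). Leaving out AAV-αSyn replicate 1, 2 or 4 gave −0.41, −0.39 and −0.34 (exact permutation p = 0.20 each, unadjusted), and the remaining 3 ways gave p = 0.0571 by the same exact test. For *Slc32a1* and *Abat* the difference from *Gad1* was lower by 0.22 (exact permutation p = 0.80) and 0.21 (p = 0.20), with adjusted p of 0.943 and 0.50. Without AAV-Null replicate 3 these were 0.11 and −0.07, and the *Slc32a1* value ran from −0.40 to −0.13 with AAV-Null replicate 1 or AAV-αSyn replicate 1 left out. For *Gad2* and *Pvalb* the difference from *Gad1* gave the values nearest 0, −0.01 (exact permutation p = 0.943) and −0.0033 (p = 0.914), both 0.943 after adjustment.

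Set against *Th* of the same array, the *Gad1* probe was higher in AAV-αSyn by 0.67 and the *Gad2* probe by 0.66, without overlap of the groups. *Gad1* minus *Th* was −2.29, −2.03, −2.04 and −2.10 in AAV-Null and −1.40, −1.45, −1.64 and −1.29 in AAV-αSyn rats. *Pvalb* (0.67), *Abat* (0.46), *Slc32a1* (0.45) and *Slc6a11* (0.27) were higher on average against *Th*, with groups that overlapped. *Th* was taken as reference with its lower level known, so these differences are a description with no test, and 0.52 of each is the change of *Th* itself.

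**Figure D3:**
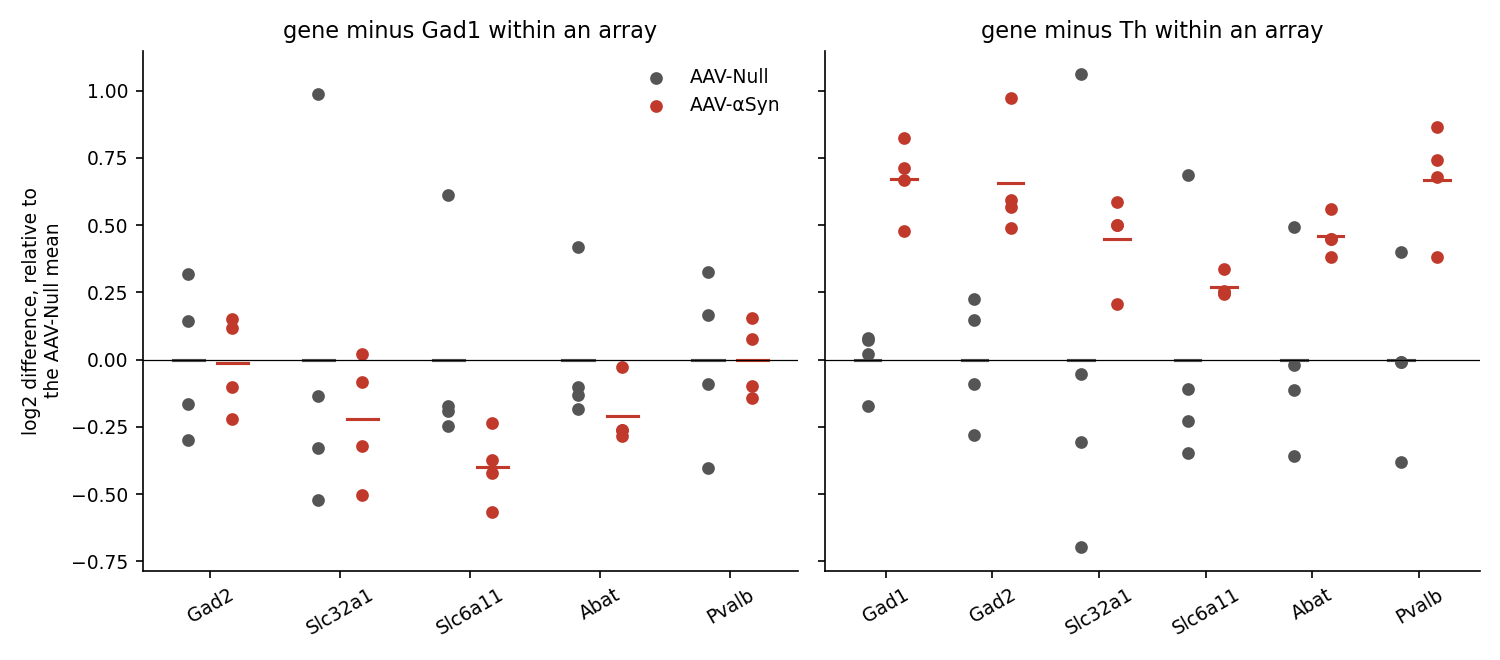
Log2 intensity of each gene minus that of Gad1 (left) or of Th (right) on the same array, plotted relative to the AAV-Null mean (vertical axis), with 1 point per array and bars at the group means. Against Gad1 the groups overlap for all 5 genes, and against Th the AAV-αSyn points of Gad1 and Gad2 lie above all AAV-Null points.

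The SD among the AAV-Null arrays was the larger for 6 of the 8 probes, all but *Gad1* A_64_P084971 and *Pvalb* A_44_P145605, a difference in spread that was not tested, and how the genes varied together turned on 1 array. Over the 8 arrays *Abat* correlated with *Slc32a1* (r = 0.92) and with *Slc6a11* (r = 0.90), and *Slc32a1* with *Slc6a11* (r = 0.80). Without AAV-Null replicate 3 these values were 0.58, 0.25 and −0.19. *Gad1* correlated with *Gad2* (r = 0.59, and 0.40 without that array) and with *Pvalb* (r = 0.43, and 0.75 without it). The 8 arrays share a slide and include both groups, and these values are descriptions. The same array also held more signal of serotonergic genes than the other AAV-Null arrays. *Tph2*, the serotonergic tryptophan hydroxylase, read 8.32, 8.12, 10.61 and 8.99 in AAV-Null and 11.16, 11.51, 10.59 and 12.20 in AAV-αSyn rats. Their part in the values of *Slc32a1*, *Slc6a11* and *Abat* was not tested.

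For *Gad1*, *Slc6a11* and *Pvalb*, the 3 most like of 13367 other genes with a gene name (provisional symbols starting with LOC or RGD left out) were found by Pearson's r over the 8 arrays. For *Gad1* they were *Nr3c2* (0.97), the mineralocorticoid receptor gene, *Nup43* (0.96), a nucleoporin gene, and *Itgb7* (0.95), an integrin gene. For *Slc6a11* they were *Ptpru* (0.99), a receptor tyrosine phosphatase gene, *Tmem205* (0.99) and *Lmx1b* (0.98), a homeobox gene of midbrain dopaminergic and serotonergic neurons. Without AAV-Null replicate 3 the values for *Slc6a11* were 0.96, 0.86 and 0.83. For *Pvalb* they were *Eef1a1* (0.96), a translation elongation factor gene, *Hspb1* (0.96), a small heat shock protein gene, and *Ilvbl* (0.93), with 0.98, 0.96 and 0.93 without that array. All these genes were picked for a high r on the same arrays, so high values without 1 array are no separate support. How high the top r of 13367 genes would be by chance was not computed. Among the 6 genes themselves, *Gad1* was most like *Gad2* (0.59), *Slc6a11* most like *Abat* (0.90) and *Pvalb* most like *Gad1* (0.43). Without AAV-Null replicate 3, *Gad1* (0.75) and *Slc6a11* (0.35) were each most like *Pvalb*, and *Pvalb* stayed most like *Gad1*. With the group means subtracted, *Pvalb* was most like *Slc6a11* (0.58), while *Gad1* and *Slc6a11* kept their nearest gene.

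A list of 11 further genes that make, move, sense or break down GABA or its precursors was examined, and all 11 were above background on all arrays. Their log2 fold changes ran from −0.39 to 0.20 with a median of −0.04, 3 higher and 8 lower. Of the 11, 2 had an unadjusted p under 0.05 and 0 an adjusted p under 0.05, beside 5.64% and 0.0148% of all probes. The plasma membrane transporters of the list gave log2 fold changes of −0.39 for *Slc6a13* (GAT-2) and −0.04 for *Slc6a12* (the betaine and GABA transporter), beside −0.25 for *Slc6a11* above. *Slc6a13* varied from 7.75 to 9.19 among the AAV-Null arrays, which limits what its value of −0.39 can show (limma, unadjusted p = 0.249). It was −0.13 without AAV-Null replicate 2, −0.61 without AAV-Null replicate 4 and −0.83 with array weights, the one setting with an unadjusted limma p under 0.05 (0.0310).

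*Maob*, which encodes the monoamine oxidase on the putrescine route to GABA in astrocytes, read 10.55, 10.30, 10.61 and 10.49 in AAV-Null and 10.71, 10.73, 10.61 and 10.71 in AAV-αSyn rats. The lowest AAV-αSyn array just passed the highest AAV-Null array, and the log2 fold change was 0.20 ± 0.085 (SE; limma, unadjusted p = 0.0432, adjusted p = 0.868). The unadjusted limma p of *Maob* was above 0.05 with cyclic loess (0.0754), in the deposited matrix (0.0514), with the replicate block (0.0857) and in 6 of the 8 ways of leaving out 1 array, reaching 0.122 without AAV-Null replicate 2. The aldehyde dehydrogenase genes of other GABA routes gave −0.19 for *Aldh1a1* and −0.01 for *Aldh9a1*, and *Aldh5a1*, next to *Abat* in GABA breakdown, gave −0.01. For the precursor supply, *Glul* (glutamine synthetase) gave −0.11, and the glutamine transporter genes *Slc38a1* and *Slc38a2* gave 0.09 and 0.12. Single arrays moved several of these by over 1.5 times: *Aldh1a1* was −0.08 without AAV-Null replicate 1, *Aldh1a1* and *Glul* were −0.11 and 0.02 without AAV-αSyn replicate 1, *Slc38a1* was 0.0066 without AAV-Null replicate 4, and *Slc38a2* was 0.06 without AAV-αSyn replicate 2, or 0.05 when AAV-Null replicate 3 was dropped. With all 8 arrays none of these 6 had an unadjusted p under 0.05. Array weights gave 0.038 for *Slc38a1* and 0.046 for *Slc38a2*. The GABA-B receptor subunit gene *Gabbr2* read 13.38, 13.59, 13.68 and 13.84 in AAV-Null and 13.22, 13.46, 13.36 and 13.29 in AAV-αSyn rats, lower by 0.29 on the log2 scale with an SE of 0.11 and overlap at 1 AAV-Null array (limma, unadjusted p = 0.0301, adjusted p = 0.835). The unadjusted p was above 0.05 in 6 of the 8 ways of leaving out 1 array, up to 0.0762 without AAV-αSyn replicate 1. Its partner subunit *Gabbr1* gave −0.16 (limma, unadjusted p = 0.0830, and 0.0473 without a filter and 0.0466 with an intensity trend).

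Genes of fast-spiking neurons, the physiological class to which many parvalbumin neurons belong, gave 9 higher and 3 lower of 12, with a median log2 fold change of 0.15, where 52.4% of all probes were higher. *Kcna1*, a voltage-gated potassium channel gene, was higher by 0.20 (limma, unadjusted p = 0.0408, adjusted p = 0.862), the only 1 of the 12 with an unadjusted p under 0.05 with all 8 arrays and the settings used here. This p was above 0.05 with the replicate block (0.0735) and in 6 of the 8 ways of leaving out 1 array, up to 0.108 without AAV-αSyn replicate 4. *Vamp1*, a synaptic vesicle SNARE gene, was higher by 0.17 without overlap (limma, unadjusted p = 0.0671). That p was under 0.05 with normexp (0.0387), without a filter on dim probes (0.0351), with an intensity trend (0.0210), with array weights (0.0316) and without AAV-αSyn replicate 1 (0.0418). Over all probes 5.64% had an unadjusted p under 0.05 and 3.83% did not overlap, and 1 of 12 each way is near these shares. The other calcium-binding protein genes, *Calb1* and *Calb2*, gave −0.24 and −0.30 with overlapping groups (limma, unadjusted p = 0.139 and 0.0797). *Calb1* was −0.11 without AAV-Null replicate 4, −0.12 with array weights and −0.16 without AAV-αSyn replicate 1. *Calb2* was −0.19 without AAV-αSyn replicate 1, and its unadjusted limma p was under 0.05 with an intensity trend (0.0453) and without AAV-αSyn replicate 3 (0.0125).

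Of 10 transcription factor genes of midbrain GABAergic neurons 8 were tested, 5 higher and 3 lower, with log2 fold changes of −0.67 to 0.31 and a median of 0.02, and 1 had an unadjusted p under 0.05. That gene was *Foxp2*, at 8.42, 8.29, 8.12 and 8.84 in AAV-Null and 7.87, 7.98, 8.02 and 7.71 in AAV-αSyn rats, lower by 0.53 without overlap (limma, unadjusted p = 0.00989, adjusted p = 0.712). Of all probes 5.64% had an unadjusted p under 0.05 and 3.83% did not overlap, and 1 gene is the smallest count above 0 that a list can give.

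**Figure D4:**
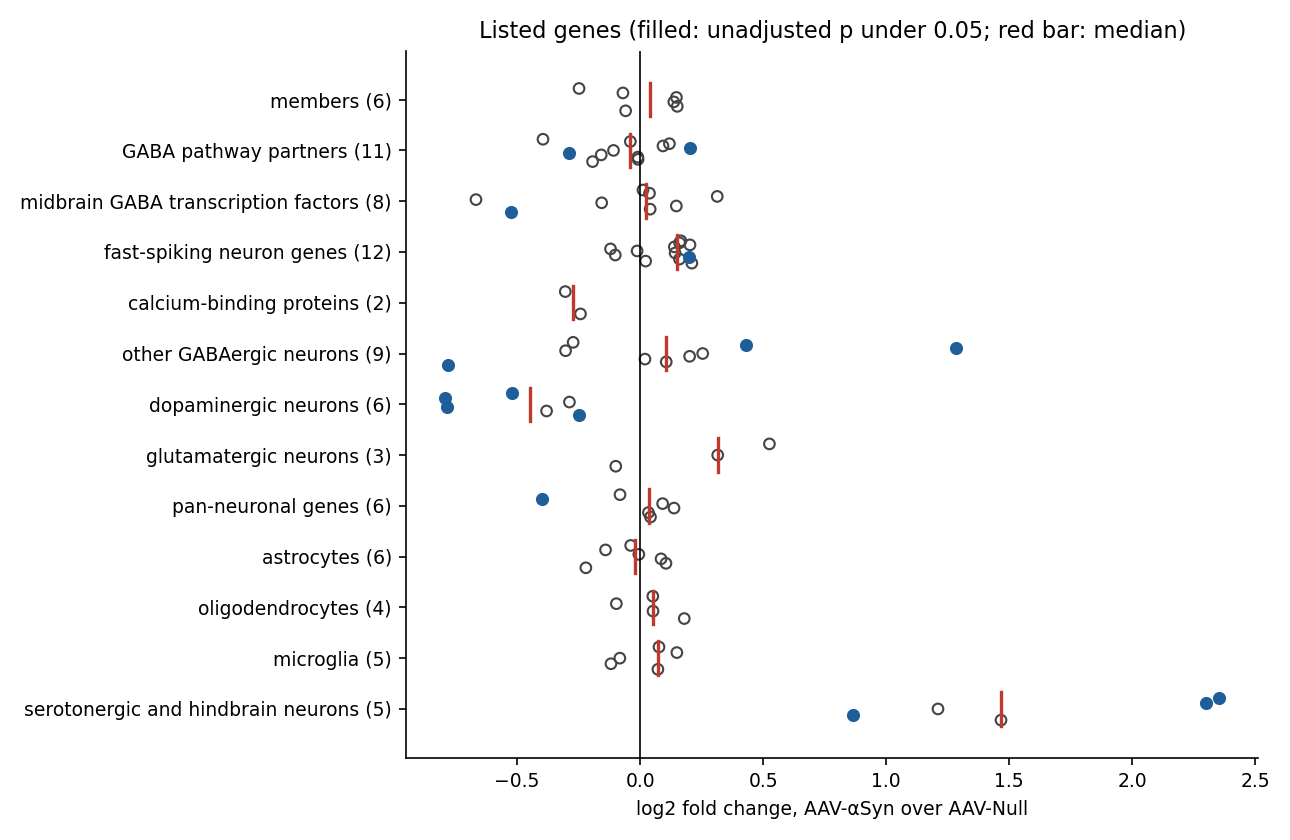
Log2 fold change of AAV-αSyn over AAV-Null (horizontal axis) for the genes of each list, with the number tested in parentheses. Each point is 1 gene by its brightest probe, filled where the unadjusted limma p is under 0.05, and red bars are medians. The 6 GABAergic genes have a median of 0.04 and no filled point, the dopaminergic list lies wholly below 0 and the serotonergic and hindbrain list wholly above it.

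The block also held markers of other GABAergic or inhibitory neurons, whose genes can share the signal of *Gad1*, *Gad2* and *Slc32a1*. All 9 tested were above background on all arrays, 6 higher and 3 lower. *Slc6a5*, which encodes the glycine transporter of glycinergic neurons, was higher by 1.28 (limma, adjusted p = 0.0424, and 0.0498 to 0.198 with 1 array left out, under 0.05 only without AAV-αSyn replicate 2). Its call was also lost with cyclic loess, without a filter, in the deposited matrix and with a block. *Sst*, the somatostatin gene, was higher by 0.43 (unadjusted p = 0.00382, adjusted p = 0.605). *Cck*, the cholecystokinin gene, which nigral dopaminergic neurons also express, was lower by 0.78 (adjusted p = 0.0919), and all 3 had groups that did not overlap. These 3 of the 9 also had an unadjusted limma p under 0.05. Of all probes 3.83% did not overlap and 5.64% had an unadjusted p under 0.05. All 5 serotonergic and hindbrain markers were tested, 2 of them above background on all arrays. All 5 were higher in AAV-αSyn, led by *Tph2* (2.35; limma, adjusted p = 0.60) and *Slc6a4*, the serotonin transporter gene (2.30; limma, adjusted p = 0.760), with *Hoxa2*, a hindbrain homeobox gene, at 0.86 (limma, adjusted p = 0.712) and at 0.29 with the normexp background correction. These 3 of the 5 had an unadjusted p under 0.05, beside 5.64% of all probes. The summed level of all 5, some of which were below background on several arrays, was 8.50 to 11.06 in AAV-Null and 10.89 to 12.44 in AAV-αSyn rats. How far inhibitory neurons from outside the SN contribute to the 6 genes was not tested.

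Of 6 pan-neuronal genes 1 had an unadjusted p under 0.05, beside 5.64% of all probes. It was the synaptotagmin gene *Syt1* at −0.40 (limma, unadjusted p = 0.00726, adjusted p = 0.675). The summed level of the pan-neuronal genes was 16.80 to 17.04 in AAV-Null and 16.87 to 17.05 in AAV-αSyn rats. Of 6 astrocyte, 4 oligodendrocyte and 5 microglial markers 0 had an unadjusted p under 0.05, with medians of −0.02, 0.05 and 0.07. The glutamatergic marker *Slc17a6*, the only 1 of its list above background on all arrays, gave −0.10 (limma, adjusted p = 0.973), with −0.03 under array weights and −0.01 or −0.02 without AAV-αSyn replicate 1 or AAV-Null replicate 4.

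With 1 array left out at a time, each gene was refitted by its brightest probe. None of the 6 genes reached an unadjusted limma p under 0.05 in any of the 8 ways. The log2 fold change kept its sign for *Gad1* (0.11 to 0.20), *Gad2* (0.02 to 0.26), *Slc6a11* (−0.34 to −0.08) and *Pvalb* (0.0015 to 0.23). It changed sign for *Slc32a1* (−0.23 to 0.22) and *Abat* (−0.12 to 0.04). The second probes of *Gad1* and *Pvalb* were not refitted. By their values above, the group difference turns negative without AAV-Null replicate 4 for *Gad1* and without AAV-αSyn replicate 1 for *Pvalb*. *Gad1* stayed within 1.5 times its value in all 8, but not with array weights, where it was 0.066, and the ranges of *Gad2* and *Pvalb* reached close to 0 without AAV-Null replicate 4, where *Gad2* was 0.02.

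**Figure D5:**
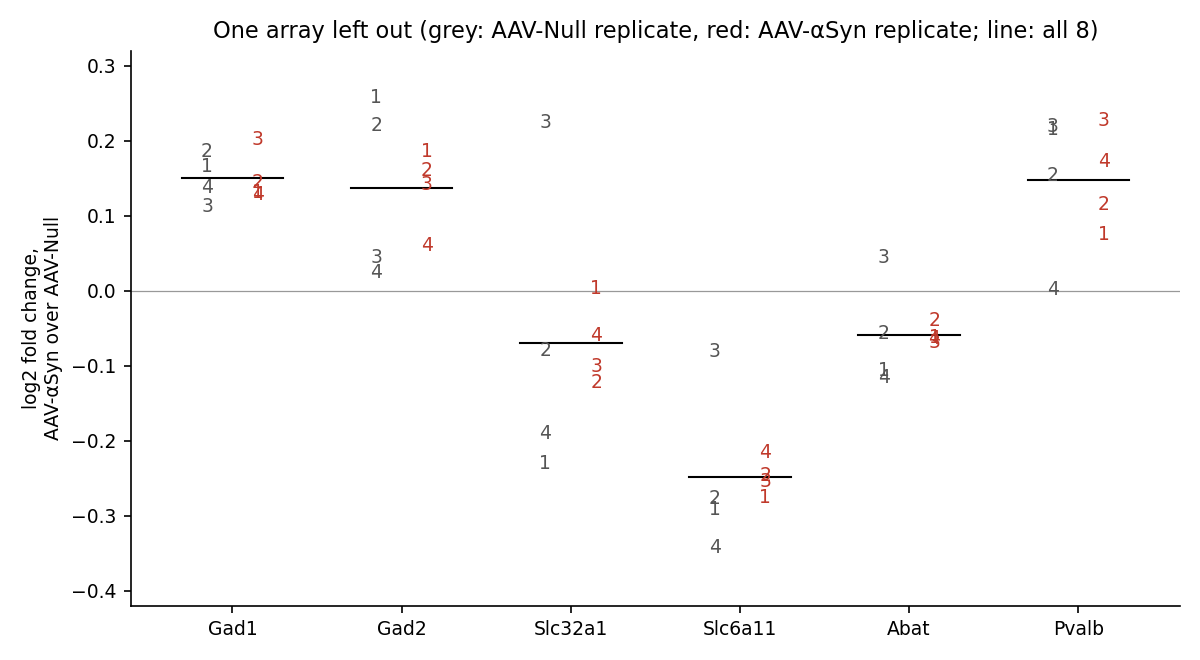
Log2 fold change of AAV-αSyn over AAV-Null (vertical axis) for the brightest probe of each of the 6 genes with 1 array left out at a time. Numerals name the replicate left out, in grey for AAV-Null and red for AAV-αSyn, and lines give the value with all 8 arrays. Leaving out AAV-Null replicate 3 moves Slc32a1 to 0.22 and Abat to 0.04, and leaving out AAV-Null replicate 4 moves Pvalb to 0.0015.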

How the data were processed

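Arrays were hybridised with RNA of the SN on the injected side, 1 sample to each of 8 Agilent SurePrint G3 Rat arrays in 1 colour (Cy3). The authors deposited scanner files with the background-corrected intensity of each spot from Feature Extraction, given as version 11.5.1.1 in the submitters' processing notes and 12.0.3.2 in the file headers, and a matrix of quantile-normalized log2 values, which were used as an alternative. Here control and outlier spots were left out, the intensity was taken to log2, and arrays were quantile normalized with limma 3.58.1 in R 4.3.3. Spots of a probe were averaged. The software's call of signal well above background had to hold for a share of 0.5 or more of a probe's spots for the probe to count on an array, and probes that counted on 1 array or more were tested. The methods state 3 biological replicates per group, whereas 4 arrays per group were deposited. All 8 were used, and which array is beyond the stated 3 is not given in the sources used here, so n = 4 counts arrays. The groups were compared by lmFit and eBayes, two-sided, with Benjamini–Hochberg adjustment over 33853 probes and a threshold of 0.05. The number of arrays limits the precision, and depth does not apply to arrays.

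Symbols came from RefSeq accessions of assembly GRCr8, which named 21229 of 45598 probes. No positions or sequences are given. A gene is represented by its brightest probe. Of the lists, 2 glutamatergic genes (*Tcf7l2*, *Pou4f1*) had no named probe. Some genes are not reported here and are left out of the lists and their counts. Text names all probes of the 6 genes, the GABA partners, *Th*, list genes without overlap of the groups or with an unadjusted p under 0.05, and the 3 genes most correlated with *Gad1*, *Slc6a11* and *Pvalb*. *Calb1*, *Calb2* and *Slc17a6* were named after their values were seen. The 6 genes and the lists were chosen with earlier results of these data known. The procedure was tested on simulated data. Alternatives changed the scaling, background correction, filter, variance model and block, used the deposited matrix or the mean over probes, and left out each array.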

Additional observations from a re-analysis of the deposited data

Results flagged for a closer look

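For the 8 probes, the list genes named in the text and the within-array differences, 94 groups of 4 arrays in all, the gap of the highest or lowest array to its neighbour was compared with the group's range, and 10 had a share above Dixon's 95% critical value, where chance gives about 4.7. Among the 16 groups of the 8 probes of the GABAergic genes there was 1, the *Gad1* probe A_44_P243102 in AAV-Null, where replicate 4 at 7.94 stood apart (share 0.924). In the within-array differences, AAV-Null replicate 3 stood apart for *Slc6a11* minus *Gad1* (0.913, at −5.42) and *Abat* minus *Gad1* (0.864, at −3.37). AAV-αSyn replicate 3 stood apart for *Abat* minus *Gad1* (0.904, at −3.82) and AAV-αSyn replicate 1 for *Slc6a11* minus *Th* (0.853, at −7.81).

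Of the list genes named in the text, AAV-Null replicate 3 stood apart for *Aldh5a1* (0.967, at 10.40) and AAV-Null replicate 4 for *Slc38a1* (0.891, at 10.73) and *Calb1* (0.889, at 9.96). In AAV-αSyn, replicate 1 stood apart for *Glul* (0.893, at 13.44) and replicate 2 for *Slc38a2* (0.8294, at 12.93).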

How the results depend on the processing

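Each gene was taken by its brightest probe or, in an alternative, by the mean over its probes. Over 13 processing alternatives 76 of 78 log2 fold changes of the 6 genes kept their direction, and with 1 array left out 45 of 48 did. An unadjusted p under 0.05 was reached in 0 of these (lowest 0.0508 and 0.0520, limma). With array weights *Gad1* was 0.066, *Abat* −0.029, *Pvalb* 0.087 (0.084 with the mean over probes), *Gad2* −0.036, *Slc32a1* 0.080, *Aldh9a1* 0.0071 and *Aldh5a1* 0.10, and 4607 probes had an unadjusted and 12 an adjusted p under 0.05. *Aldh5a1* was 0.0083 with 75th percentile scaling, *Aldh9a1* 0.0041 and *Slc32a1* −0.042 with normexp, *Pvalb* minus *Gad1* 0.012 in the deposited matrix and *Gad2* minus *Gad1* 0.024 with the mean over probes. With the side of the slide as a block 3 probes had an adjusted p under 0.05. With 1 array left out, *Slc32a1* lay between −0.23 and 0.22, *Abat* between −0.12 and 0.044, *Glul* between −0.16 and 0.017, *Aldh9a1* between −0.045 and 0.052, *Aldh5a1* between −0.047 and 0.10 and *Slc6a12* between −0.070 and 0.0026. Against *Gad1*, *Gad2* lay between −0.11 and 0.092, *Slc32a1* between −0.40 and 0.11, *Slc6a11* between −0.48 and −0.19, *Abat* between −0.27 and −0.069 and *Pvalb* between −0.14 and 0.11. Probes with an adjusted p under 0.05 numbered 3 to 5. The call of *Slc6a5* was lost with cyclic loess (adjusted p = 0.0621), without a filter (0.0821), in the deposited matrix (0.0599) and with a block, and that of *Cck* was gained with normexp (0.0262), an intensity trend (0.00823) and array weights (0.0434). The cause was not tested.

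Same-numbered arrays of the groups did not deviate together throughout (r = 0.14, 0.27, 0.041 and −0.0022 for replicates 1 to 4), and 4 of 8 arrays correlated best with their own number. On all 8 arrays the replicate number was also the row on the slide, so a pairing of samples and the slide row cannot be told apart. With the replicate block *Gad1* was 0.15 (limma, unadjusted p = 0.0967), the other 5 genes kept their values with p above 0.05, and 2218 probes had an unadjusted and 0 an adjusted p under 0.05. Scaling moved the median of all probes by less than 0.1 (log2). Normexp was run on median signals, since mean signals were not used here. With standard errors up to 0.28, differences of the size seen for *Slc32a1* were not detectable with 4 arrays a group. The comparison with *Th* was chosen after seeing the data.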
